A study of Mus musculus with 12 samples.

Results

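Loss of Alas2 expression in maturing erythroid cells was examined by setting 3 libraries of double mutant cells against 3 libraries of wild-type (WT) cells, both treated with beta-estradiol. These 6 of the 12 libraries of the series were taken by their labels alone, and RNA levels were compared across all genes. G1E-ER-GATA-1 cells are a mouse erythroid precursor line that lacks endogenous GATA-1, the master transcription factor of red cell formation. In its place they hold a fusion of GATA-1 with the hormone-binding part of the estrogen receptor, and estradiol makes it active and starts maturation. All cells of the comparison share this background, the erythropoietin and Kit ligand of the medium, and 48 h with 1 µM estradiol. The mutant cells carry mutated cis-elements of Alas2; the labels call them double mutants and do not name the elements. For reference, levels are also given in untreated WT cells and in mutant cells that received estradiol with 1 mM 5-aminolevulinic acid (5-ALA), 3 libraries each. No untreated mutant library is analysed here, and the labels do not say how many mutant clones were used. An effect of Alas2 loss during maturation and a difference between clones therefore cannot be told apart in any result below. The labels number the libraries of a group but do not say whether they came from separate cultures, so p-values measure only the spread between these libraries, which may be technical.

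Alas2 encodes the erythroid form of ALA synthase, the mitochondrial enzyme that joins glycine and succinyl-CoA to 5-ALA in the first step of heme synthesis. Besides binding oxygen in hemoglobin, heme removes the repressor BACH1 from antioxidant and globin genes and holds the kinase HRI (Eif2ak1) inactive. Without heme, HRI phosphorylates the initiation factor eIF2alpha, which lowers general translation and raises that of ATF4, an activator of genes for amino acid supply.

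Depth ran from 20309085 to 43548387 expected counts in the 6 libraries, enough to test 12115 of 25097 genes. Pearson's r across genes was 0.99232 or more between libraries of the same group. Of the genes tested, 4258 (35.1%) were higher and 4076 (33.6%) lower in mutant cells at an adjusted p below 0.05 in the edgeR quasi-likelihood test, 68.8% together. Of these genes, 5185 differed by less than 1.5-fold. A stricter test against a change of 1.5-fold was used as a second call. It was passed by 1057 genes in the higher direction (8.72%) and 1021 in the lower (8.43%), 17.2% together. Below, "higher" and "lower" refer to the first test and "past 1.5-fold" to the second. Each list count below is to be read beside these shares of all tested genes. A list near 68.8% called, or 17.2% past 1.5-fold, does not stand out by its number of calls. Differences of 8-fold or more were found in 25 higher and 90 lower genes. The median log2 difference over all genes tested was -0.01. In limma-trend on log2(TPM + 1) that median shifted to 0.12, and 70.7% of the called genes were higher, against 51.1% by edgeR, with 1057 genes higher and 336 lower past 1.5-fold. Small differences therefore depend on the scale, and where the split of a list moved by more than 10 percentage points on the TPM scale, its counts there follow in parentheses. The 3 libraries of each group did not overlap in 71.7% of genes, with the mutant libraries above in 36.2% and below in 35.4%.

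**Figure D1:**
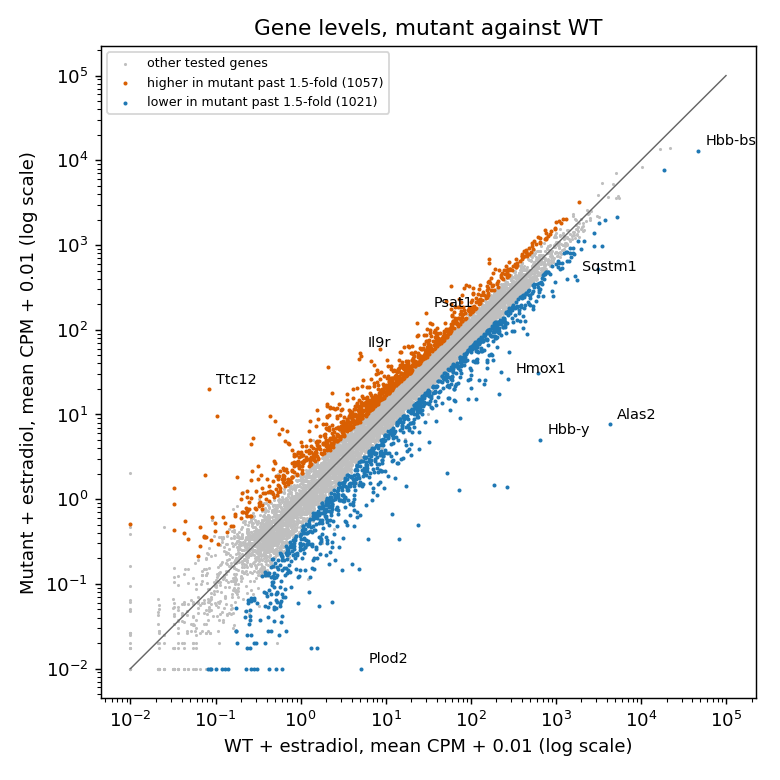
Mean CPM of each of the 12115 tested genes in WT (x axis) and mutant (y axis) cells with estradiol, both on log10 axes with 0.01 added. Orange points are the 1057 genes higher and blue points the 1021 genes lower past 1.5-fold; the gray line marks equal levels. Alas2 lies far below the line, at 4293 ± 15.2 CPM in WT and 7.64 ± 2.204 CPM in mutant cells (mean ± SD, n = 3).

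Alas2 itself followed the labels. It had 4309.5, 4290.3 and 4279.5 CPM (counts relative to the TMM-scaled library total) in the WT libraries and 9.48, 8.24 and 5.201 CPM in the mutant libraries, a log2 difference of -9.16 (SE 0.135, adjusted p = 8.92e-12, edgeR). Untreated WT cells had 5.12 ± 0.767 CPM (mean ± SD, n = 3, as below); the lowest mutant library was within that spread and the other two were above it. Relative to their mean the mutant libraries differed among themselves more than the WT libraries did. In bulk RNA, fewer cells with a transcript and less of it per cell cannot be told apart, here or below. Alas2 lies on chromosome X of mm10 from 150547375 to 150570638. Levels of different genes can be compared only per transcript length, for which TPM, the length-scaled share of all transcripts, serve. On that scale Alas2 stood at 3514, 3543 and 3512 TPM in WT and at 10.2, 7.99 and 4.87 TPM in mutant cells. Alas1, the form of the enzyme used by all tissues, stood at 5.10, 5.02 and 6.24 TPM in WT and at 9.10, 9.30 and 9.49 TPM in mutant cells. In mutant cells both forms thus lay within the same range of a few TPM, while in WT cells Alas2 exceeded Alas1 by 653-fold on average. Alas1 was higher in mutant cells (log2 0.83), and so were 5 of the 7 enzymes that follow. Alad, which condenses 5-ALA to porphobilinogen, had 261, 258 and 263 CPM in WT and 553, 575 and 560.0 CPM in mutant libraries (log2 1.11). Ppox, the last oxidase before the iron step, had a log2 difference of 0.75. Of the 9 genes of the pathway, 6 were higher and 2 lower (7 and 1 on the TPM scale), with 3 and 1 past 1.5-fold, beside 35.1% and 33.6% of all tested genes, and 8.72% and 8.43% past 1.5-fold. Alas1, Alad and Ppox were the 3 past that limit, and for each no mutant library fell to the level of a WT library.

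The carriers that serve heme synthesis in mitochondria had 9 higher and 4 lower members among 14, but only 2 were past 1.5-fold. Tspo2, an erythroid member of the translocator protein family, had 4.47, 4.39 and 5.49 CPM in WT and 42.8, 47.3 and 45.5 CPM in mutant libraries. Abcb8, a mitochondrial ABC transporter, had a log2 difference of 1.01. The main mitochondrial iron importer of erythroid cells, Slc25a37, differed by only 0.201 on the log2 scale.

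Iron genes went both ways. Tfrc, the transferrin receptor through which erythroid cells take up nearly all their iron, had 1489, 1526 and 1537 CPM in WT and 743, 730.4 and 703 CPM in mutant libraries (log2 -1.07, SE 0.0252, adjusted p = 7.89e-25, edgeR). The mutant level lay between that of WT cells with estradiol and the 392 ± 8.63 CPM of untreated ones. Tfr2, a second transferrin receptor that takes part in iron sensing, was higher in mutant cells (2.53 ± 0.295 CPM against 11.7 ± 0.309 CPM), as were the endosomal iron reductase gene Steap3 (log2 1.86) and Aco1 (log2 1.31), which encodes an iron regulatory protein. Per length, Tfrc still exceeded Tfr2 in mutant cells, with 328 ± 16.2 TPM against 7.003 ± 0.155 TPM. The iron exporter gene Slc40a1 was lower (log2 -0.67). Of the 14 tested genes of iron uptake, storage and sensing, 6 were higher and 7 lower, with 3 and 2 past 1.5-fold. Among all tested genes 35.1% and 33.6% were higher and lower, and 8.72% and 8.43% past 1.5-fold.

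Globin mRNA was lower in mutant cells, with the embryonic chains at a small share of their WT level. All 9 tested globin genes were lower, 8 of them past 1.5-fold, and on the TPM scale 8 of the 9 were lower. Hbb-bs, the main adult beta-globin gene, had 47039, 47023 and 46371 CPM in WT and 12733, 13132 and 13177 CPM in mutant libraries. Hbb-y, an embryonic beta-like gene, had 653, 659.7 and 648 CPM against 5.06, 5.403 and 4.59 CPM, and Hba-a2, an adult alpha-globin gene, 19116, 18571 and 18954 CPM against 7259, 7389 and 8092 CPM. All mutant libraries were thus below all WT libraries for each of these genes, by 2.49-fold for Hba-a2, 3.597-fold for Hbb-bs and 129-fold for Hbb-y. The balance of chains differed as well. Summed per length, beta-like transcripts were 1.56, 1.62 and 1.55 times as abundant as alpha-like transcripts in the WT libraries and 1.07, 1.09 and 0.987 times in the mutant libraries. Embryonic genes made up 2.01 ± 0.00943% of beta-like TPM in WT and 0.0525 ± 0.00327% in mutant cells. The minor adult gene Hbb-bt made up 1.26 ± 0.0112% of adult beta TPM in WT and 0.235 ± 0.0225% in mutant cells. Hbb-bs and Hbb-bt, like Hba-a1 and Hba-a2, are near-identical copies, so the division of reads between them is an estimate and their single values are uncertain. With 5-ALA the beta-like over alpha-like ratio was 1.97 ± 0.106.

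**Figure D2:**
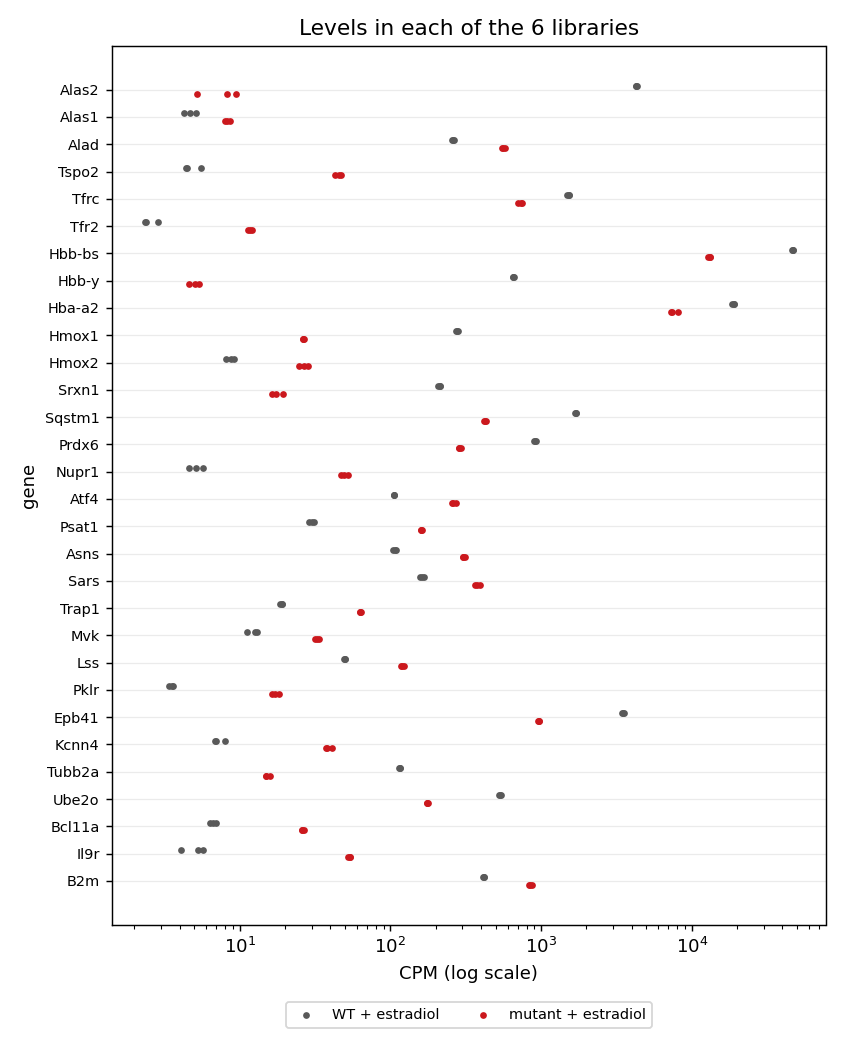
CPM in each library (x axis, log10 scale) for 30 genes named in the text (rows), with WT cells in gray and mutant cells in red, 3 points per group. The points of a group nearly coincide; Alas2, the globins and BACH1/NRF2-responsive genes lie lower in mutant cells, and Tspo2, Nupr1, Psat1, Trap1 and Bcl11a lie higher.

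Genes under the control of BACH1 and NRF2, which supply glutathione, thioredoxin and NADPH, had 15 lower and 3 higher members among 21 (13 and 7 on the TPM scale), with 12 lower and 0 higher past 1.5-fold. Their median log2 difference was -0.77. Srxn1, which repairs oxidized peroxiredoxins, had 208, 214 and 214 CPM in WT and 16.3, 19.4 and 17.3 CPM in mutant libraries. Sqstm1, the autophagy receptor p62, had 1708, 1672 and 1693 CPM against 425, 429.6 and 421 CPM (log2 -1.99, SE 0.0238, adjusted p = 7.13e-32, edgeR). Both genes of the oxidative pentose phosphate branch that make NADPH were among those lower, G6pdx (log2 -1.303) and Pgd (-1.39). The 3 higher members, Keap1, Tkt and Txn1, differed by 0.25, 0.24 and 0.098, and Txn1 lost its call without mutant replicate 3, with the stricter low-count filter and in DESeq2. The mRNAs of the regulators themselves differed by little: Bach1 had a log2 difference of -0.09, which was 0.11 on the TPM scale and 0.068 with scaling by library size alone. Nfe2l2, which encodes NRF2, was at -0.03 (adjusted p = 0.381, edgeR), and at 0.18 and 0.13 under the same 2 alternatives.

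Of the 2 heme oxygenases, Hmox1 was lower and Hmox2 higher in mutant cells. Hmox1, the inducible form that opens the heme ring, had 274, 276 and 279.7 CPM in WT and 26.8, 26.2 and 26.2 CPM in mutant libraries. Hmox2, the constitutive form, had 8.13, 8.75 and 9.09 CPM in WT and 24.6, 26.6 and 28.3 CPM in mutant libraries (log2 1.62, SE 0.0693, adjusted p = 1.46e-18, edgeR). Hmox2 lies on chromosome 16 among neighbours that were higher too (described below with the chromosomes), and the part of that position in its rise was not tested. Per length, Hmox1 exceeded Hmox2 in WT cells (286 ± 4.83 against 12.4 ± 0.235 TPM), and Hmox2 exceeded Hmox1 in mutant cells (43.8 ± 4.93 against 30.5 ± 0.176 TPM). With 5-ALA Hmox1 stood at 153 ± 4.32 TPM and Hmox2 at 33.97 ± 2.45 TPM. Flvcr1 and Slc48a1, both heme transporter genes, were lower (log2 -1.11 and -1.401).

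Enzymes against peroxide and superoxide had 6 higher and 7 lower of 13 (7 and 2 on the TPM scale), with 1 and 2 past 1.5-fold; their median of -0.08 was 0.11 on the TPM scale. Prdx6, a peroxidase that also repairs membrane lipids, had 909.8, 919.6 and 902 CPM in WT and 287, 296 and 284 CPM in mutant libraries, and Cat, which encodes catalase, itself a heme enzyme, had a log2 difference of -1.19. Glrx, glutaredoxin of the cytosol, went the other way, from 7.84 ± 0.416 to 33.5 ± 1.01 CPM. With 5-ALA, Prdx6 stood at 953 ± 16.7 CPM and Cat at 543 ± 6.73 CPM, while Glrx stood at 28.2 ± 0.609 CPM.

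Of the integrated stress response and amino acid supply, Nupr1 and Psat1 were among the 12 largest rises past 1.5-fold of genes with a mean of at least 10 CPM over the 6 libraries, and other genes were lower. CARE is a composite element bound by ATF4 with C/EBP proteins. A single form of it, TGATGNAAT, was searched on both strands in the 250 bases before RefSeq start sites (GRCm38.p6). Elements with other letters, such as another last base, were not searched, so a gene without a match may still hold a CARE. This form was found for 1 of 14 stress response regulators, Nupr1, and for 1 of 13 amino acid synthesis genes, Pycr1. None of 16 amino acid transporter genes had this form, and 0.490% of 9187 tested genes did. These counts are by gene, with a match in any of its promoters. Of all 32851 single promoters, a different unit, 0.816% held it. For the BACH1/NRF2 genes the core of the antioxidant response element was searched as TGACNNNGC, both strands. It was found for 6 of 18 genes, Txnrd1, Gclm, G6pdx, Prdx1, Mafg and Nfe2l2, against 13.8% of tested genes and 10.2% of all single promoters. Of 6 heme degradation and export genes 2 had it, Flvcr1, which was lower, and another gene that was higher. Followed by an A, it was found for 1 of the 18 BACH1/NRF2 genes, Txnrd1, against 2.65% of tested genes and 2.47% of all single promoters. Windows of 100 bases of 4 of these promoters are shown as examples, chosen after the values were seen. Nupr1 and Pycr1 were higher, and Txnrd1 (log2 -1.302) and Gclm (-0.84) lower. G6pdx, Mafg and Prdx1, not shown, were lower too, and Nfe2l2 was not called. Each is given 5′ to 3′ in the direction of its gene, and capitals mark the match. They lie at chr7:126625527-126625626 (minus strand), chr11:120643797-120643896 (minus strand), chr10:82859069-82859168 (plus strand) and chr3:122245378-122245477 (plus strand).
Nupr1: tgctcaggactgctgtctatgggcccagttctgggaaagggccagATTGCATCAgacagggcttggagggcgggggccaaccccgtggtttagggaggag
Pycr1: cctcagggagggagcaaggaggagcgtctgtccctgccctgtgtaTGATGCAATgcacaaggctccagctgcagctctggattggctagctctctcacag
Txnrd1: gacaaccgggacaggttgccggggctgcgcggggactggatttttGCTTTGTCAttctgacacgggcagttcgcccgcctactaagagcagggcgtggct
Gclm: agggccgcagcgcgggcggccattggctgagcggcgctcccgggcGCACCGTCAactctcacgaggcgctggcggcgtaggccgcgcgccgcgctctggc
A match is a description of these letters and not a test of binding.

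Nupr1, a small stress-induced chromatin protein whose window is printed above, had 4.63, 5.72 and 5.09 CPM in WT and 49.1, 47.1 and 52.3 CPM in mutant libraries (log2 3.26, SE 0.0693, adjusted p = 5.57e-26, edgeR). Atf4 itself had 105, 105 and 105 CPM against 258, 261 and 272 CPM, and Trib3, a pseudokinase that restrains the response, had a log2 difference of 1.39. These 3 were the only ones of 16 tested regulators past 1.5-fold in the higher direction, and 0 were past it in the lower. By the first test 9 were higher and 5 lower (12 and 3 on the TPM scale). Among the 5 lower ones, Ppp1r15a, the phosphatase subunit that ends the response, had 1365 ± 34.5 CPM in WT and 1001 ± 19.1 CPM in mutant cells. Sesn2 (-0.41) and Cebpb (-0.52), also counted among ATF4-responsive genes, were lower. The mRNA of HRI, Eif2ak1, differed by -0.17 on the log2 scale, and by 0.024 on the TPM scale.

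Enzymes that make serine, one-carbon units, asparagine and proline had 11 higher and 2 lower members among 17, 9 and 2 past 1.5-fold, with a median log2 difference of 0.85. Psat1, the aminotransferase of serine synthesis, had 30.9, 30.04 and 28.98 CPM in WT and 158, 161 and 159 CPM in mutant libraries. Asns, asparagine synthetase, had 109, 105 and 108 CPM against 304, 314 and 303 CPM, and Aldh18a1, which starts proline synthesis, 77.1, 76.6 and 79.3 CPM against 213, 215 and 213 CPM. In all of them each mutant library was above each WT library. Among its one-carbon enzymes, the mitochondrial Shmt2 and Mthfd2 were higher (log2 1.398 and 1.17), and the cytosolic Shmt1 was lower (-0.76). The cytosolic Mthfd1 differed by 0.13 and lost its call in DESeq2 and without mutant replicate 2. The mitochondrial Mthfd1l (-0.25) and Aldh1l2 (-0.23) did not pass the test. Pycr1, a mitochondrial enzyme of proline synthesis, had 1.08 ± 0.2098 CPM in WT and 2.79 ± 0.262 CPM in mutant cells. In untreated WT cells Psat1 stood at 538 ± 13.2 CPM and Asns at 777 ± 21.1 CPM, above the mutant levels. With 5-ALA the levels were 145 ± 0.226 and 279.9 ± 2.48 CPM, and that of Atf4 was 291 ± 13.7 CPM.

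Of 19 amino acid transporters 7 were higher and 9 lower (8 and 6 on the TPM scale), and the sign of their median changed from -0.12 to 0.13 on the TPM scale. Slc7a5, the large neutral amino acid exchanger, had 517, 514 and 531 CPM in WT and 965, 977 and 983 CPM in mutant libraries, and Slc38a5, a glutamine and serine carrier, had a log2 difference of 1.096. Slc7a11, the cystine transporter shared with the BACH1/NRF2 list, was lower (-2.34). Cytosolic aminoacyl-tRNA synthetases had 18 higher and 2 lower members among 20, 4 and 0 past 1.5-fold. Sars, for serine, had 168, 158 and 161 CPM against 365, 375 and 392 CPM and Aars, for alanine, a log2 difference of 0.898. The 2 lower ones were Dars (-0.25) and Mars (-0.07, which was 0.061 on the TPM scale and 0.084 with scaling by library size alone, and lost its call with no low-count filter and without WT replicate 1, WT replicate 3 or mutant replicate 1). Mitochondrial synthetases had 11 higher and 2 lower members among 17, 3 and 0 past 1.5-fold, led by Sars2 (1.35) and Aars2 (1.34).

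**Figure D3:**
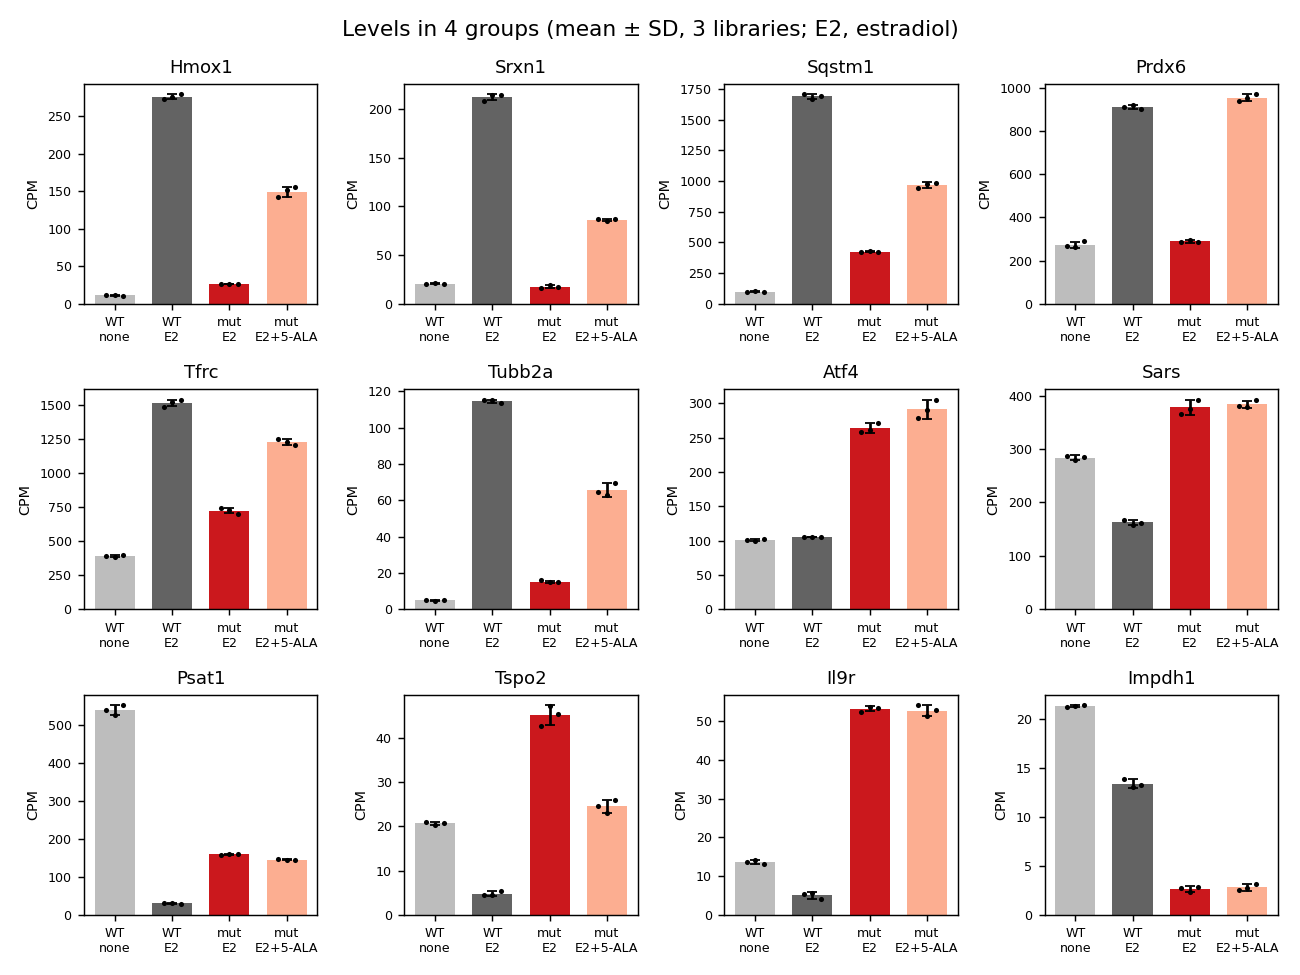
Mean CPM (bars of 3 libraries, y axis from 0, error bars SD, dots single libraries) of 12 genes in the 4 groups, from left to right WT without (none) and with estradiol (E2), then mutant with estradiol alone and with added 5-ALA. Hmox1, Srxn1, Sqstm1 and Prdx6 lie lower in the third bar than in the second and higher again in the fourth, whereas Atf4, Sars and Il9r are higher in mutant cells with and without 5-ALA.

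Nuclear genes of mitochondria other than these were mostly higher by small steps, whereas transcripts of the mitochondrial genome went both ways. Of all tested genes 35.1% were higher and 33.6% lower, 8.72% and 8.43% past 1.5-fold. Nuclear genes of the respiratory chain had 36 higher and 2 lower members among 43, but only 4 were past 1.5-fold (9 on the TPM scale), and the median log2 difference was 0.25. Ndufs8, an iron-sulfur subunit of complex I, had the largest of them (0.81). Citric acid cycle genes had 18 higher and 3 lower members among 24 (22 and 0 on the TPM scale) with 1 past 1.5-fold. That one was Mdh1 (0.85), which encodes the cytosolic and not the mitochondrial malate dehydrogenase. Mitochondrial ribosomal protein genes had 23 higher and 1 lower among 33. Among chaperones and proteases of mitochondria, 13 were higher and 1 lower of 17, 4 and 0 past 1.5-fold. Of these 4, Trap1 and Dnaja3 lie in the stretch of chromosome 16 that also holds Hmox2, where neighbouring genes were higher as well. Trap1, a mitochondrial HSP90, had 19.02, 18.6 and 19.1 CPM in WT and 64.1, 62.7 and 62.4 CPM in mutant libraries, Dnaja3, a partner of mitochondrial HSP70, 12.5, 11.7 and 10.5 CPM against 37.7, 36.9 and 36.01 CPM, and the protease gene Lonp1 had a log2 difference of 1.15. Of 13 transcripts of the mitochondrial genome 5 were higher and 7 lower (6 and 5 on the TPM scale), between -0.45 for mt-Atp6 and 0.72 for mt-Nd3. The unfolded protein response of the endoplasmic reticulum was at 9 higher and 9 lower of 20 genes (11 and 4 on the TPM scale) with 0 past 1.5-fold in either direction, between -0.56 and 0.45.

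Within the translation apparatus, most ribosomal protein genes were higher in mutant cells. Cytosolic ribosomal protein genes had 48 higher and 2 lower members among 50, 34 and 1 past 1.5-fold. Rpl22l1 was among the lower ones (log2 -0.26). Eef2, the elongation factor, was at 3528 ± 44.5 and 5423 ± 125 CPM. Ribosome assembly and RNA polymerase I genes had 18 lower and 5 higher members among 31, although only Rrn3, an initiation factor of RNA polymerase I, was past 1.5-fold (186, 191 and 191 CPM in WT and 98.1, 95.5 and 92.4 CPM in mutant libraries). Their median of -0.19 changed sign on the TPM scale (0.01), where 12 were higher and 8 lower. Translation factors had 16 higher and 12 lower members among 34 (22 and 6 on the TPM scale) with 0 past 1.5-fold (6 higher on the TPM scale).

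Most genes of cholesterol synthesis were higher in mutant cells. Of 20 enzymes, 18 were higher and 1 lower, 13 and 1 past 1.5-fold, with a median log2 difference of 0.86. Mvk, mevalonate kinase, had 12.99, 11.1 and 12.6 CPM in WT and 32.4, 31.8 and 33.6 CPM in mutant libraries, and Lss, which closes the sterol ring, 50.3, 49.4 and 49.8 CPM against 119, 123 and 117 CPM. For both genes each mutant library was above each WT library. Of 14 genes of sterol control and transport 9 were higher and 2 lower, and Abca1, the cholesterol exporter, was among the lower ones (log2 -0.89). Of 13 fatty acid genes 10 were higher and 3 lower (10 and 1 on the TPM scale). Acss2, which makes acetyl-CoA from acetate, was the largest fall there (625, 615 and 615 CPM in WT, 245, 246 and 251 CPM in mutant libraries), and the desaturase gene Scd2 was at 1852 ± 10.04 against 3259.8 ± 12.8 CPM.

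Of 23 genes from glucose uptake to lactate, 16 were higher and 7 lower, 9 and 2 past 1.5-fold. Slc2a3, a glucose transporter, had 1106, 1109 and 1113 CPM in WT and 517, 509.6 and 518 CPM in mutant libraries. Among the phosphofructokinases, the muscle form Pfkm was higher (log2 1.49) and the liver form Pfkl lower (-0.91). Per length, the platelet form Pfkp remained the most abundant in mutant cells (295 ± 7.87 TPM, against 56.4 ± 1.89 for Pfkm and 7.05 ± 0.964 for Pfkl). Pklr, the pyruvate kinase of red cells and liver, had 3.62, 3.37 and 3.56 CPM in WT and 17.2, 18.2 and 16.5 CPM in mutant libraries, and the mutase gene Pgam1 a log2 difference of 1.39. Pklr stayed below Pkm per length, at 10.9 ± 0.801 against 164 ± 1.86 TPM in mutant cells.

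**Figure D4:**
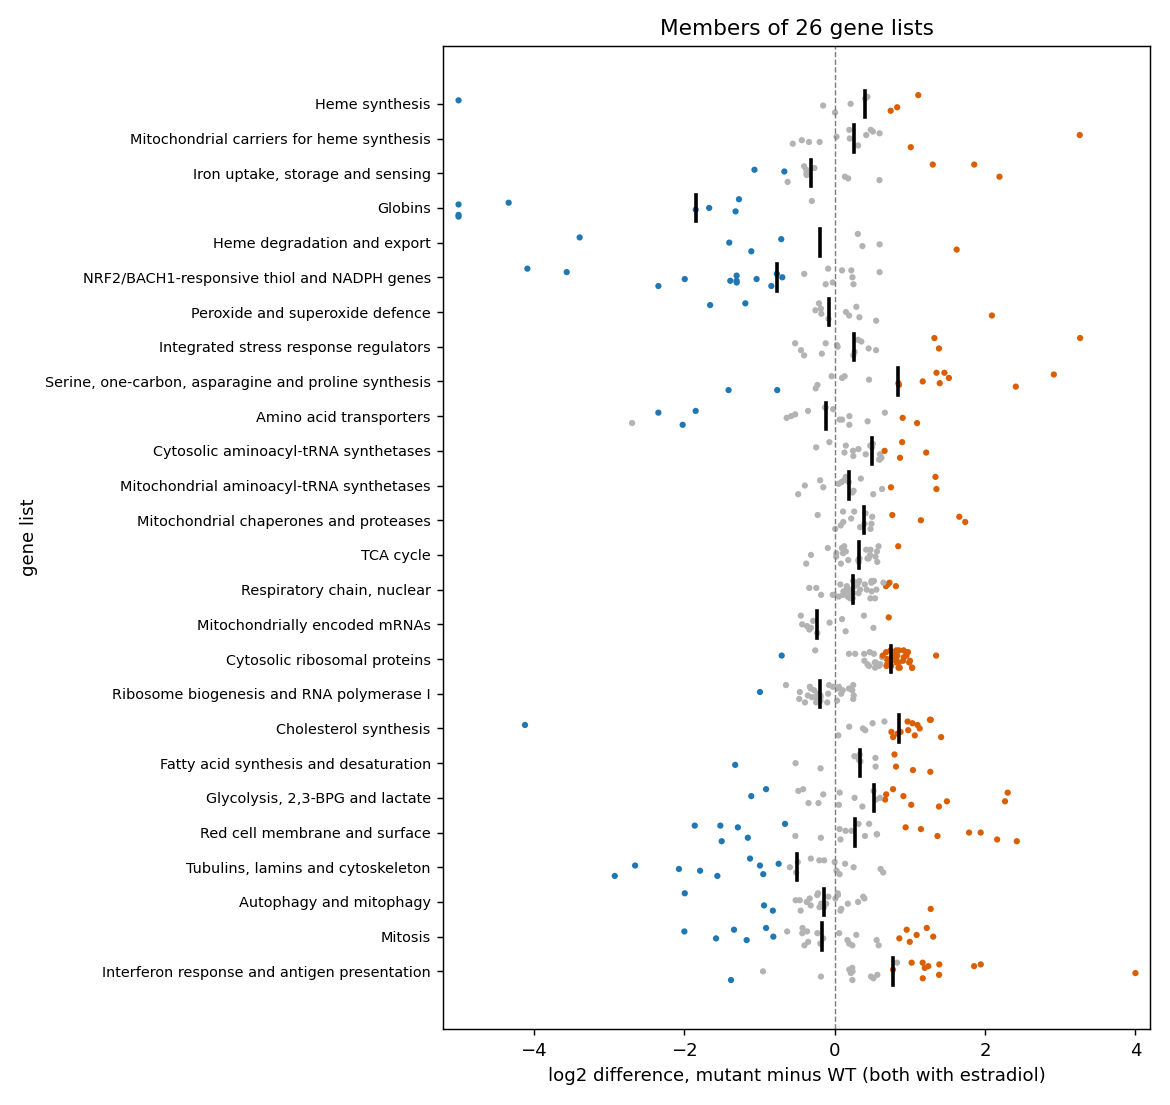
Log2 difference, mutant minus WT with estradiol (x axis), of every tested member (dots) of 26 gene lists (rows), with the median of each list as a black bar and 0 as a dashed line; values beyond -5 or 4 are drawn at those limits. Dots in orange or blue are past 1.5-fold. Cholesterol, serine and ribosomal protein genes lie mostly to the right, globins and BACH1/NRF2-responsive genes to the left, and respiratory chain genes just right of 0.

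Genes of the red cell membrane had 16 higher and 7 lower members among 24, 7 and 6 past 1.5-fold. Among the lower ones were Epb41, protein 4.1 of the membrane skeleton (3468, 3479 and 3542 CPM in WT and 963, 971 and 955 CPM in mutant libraries), and Slc4a1, the band 3 anion exchanger (2827, 2808 and 2829 against 971, 992 and 989.8 CPM). Higher were Dmtn, an actin-bundling protein of the skeleton (16.4 ± 0.713 to 63.3 ± 1.27 CPM), Kcnn4, the Gardos potassium channel (7.25 ± 0.616 to 38.6 ± 1.84 CPM), and Rhag, an ammonia-conducting Rh protein (4.61 ± 0.289 to 20.7 ± 0.7302 CPM). In untreated WT cells Kcnn4 had 33.5 ± 1.79 CPM, close to the mutant level, whereas Dmtn had 0.273 ± 0.192 CPM, far below it.

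Cytoskeletal genes had 13 lower and 4 higher members among 22, 9 and 0 past 1.5-fold. The beta-tubulin gene Tubb2a had 115, 115 and 114 CPM in WT and 15.9, 14.9 and 14.9 CPM in mutant libraries (log2 -2.92, SE 0.0417, adjusted p = 5.07e-30, edgeR), and Tubb2b, its close copy, 63.7, 61.4 and 64.4 against 13.4, 14.8 and 16.6 CPM; reads of the 2 copies may be split between them, so each value is uncertain. Tubb5, another beta-tubulin gene, was higher (0.25). Actg1, cytoplasmic gamma-actin, had a log2 difference of -1.79. Lmna, which encodes lamins A and C, was higher (0.61). Tubb2a stood at 65.6 ± 3.595 CPM and Tubb2b at 51.01 ± 2.52 CPM with 5-ALA.

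Late clearance genes gave a mixed picture. Of 19 ubiquitin enzymes and ligases 6 were higher and 10 lower (8 and 6 on the TPM scale), 2 and 4 past 1.5-fold; the median of -0.095 changed sign on the TPM scale (0.07). Ube2o, which marks ribosomal and other proteins for removal in reticulocytes, had 541, 523 and 536 CPM in WT and 176, 174 and 178 CPM in mutant libraries, and the F-box gene Fbxo30 283, 275 and 278 against 58.4, 53.7 and 52.4 CPM. Trim10, an erythroid tripartite-motif protein, was higher (30.6 ± 0.473 to 103 ± 4.04 CPM). Autophagy genes had 16 lower and 6 higher members among 27 (9 and 11 on the TPM scale), 3 and 1 past 1.5-fold, with Sqstm1, Ulk1 (-0.94) and Gabarap (-0.82) lower and Map1lc3a (1.28) higher. Scaled by library size alone, their median went from -0.15 to 0.01. With 5-ALA, Ube2o was at 433 ± 13.8 CPM and Fbxo30 at 157 ± 8.24 CPM.

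Of 28 mitotic genes 11 were higher and 11 lower (13 and 7 on the TPM scale), 6 and 6 past 1.5-fold (5 and 0 on the TPM scale), and their median of -0.17 was 0.13 on the TPM scale. Bub1b, a checkpoint kinase, had 2.18 ± 0.445 CPM in WT, 0.559 ± 0.274 CPM in mutant and 260.0 ± 0.932 CPM in untreated WT cells, and Ccnb1, cyclin B1, had 33.6 ± 1.65, 83.3 ± 0.737 and 412 ± 13.4 CPM. Of 27 replication genes 14 were higher and 9 lower, with the loading factor gene Cdc6 at 1.91 and the helicase subunit gene Mcm6 at -1.33. Among G1 regulators, Ccnd2, cyclin D2, had 73.1, 67.1 and 75.4 CPM in WT and 222, 231 and 232 CPM in mutant libraries, and Ccne2, cyclin E2, 20.04, 22.9 and 21.9 against 7.34, 7.06 and 6.995 CPM. Cdkn2c, an inhibitor of the kinases that cyclin D binds, was higher too (33.4 ± 2.05 to 100.2 ± 6.32 CPM). Of the BCL2 family and caspases 7 were higher and 9 lower of 21 (8 and 6 on the TPM scale), with a median of -0.14 that was 0.03 on the TPM scale. The share called was 78.6% for mitotic, 85.2% for replication and 76.2% for these genes, beside 68.8% of all tested genes. The survival gene Bcl2l1 (BCL-XL) had 853, 846 and 851 CPM in WT and 441, 451 and 459.7 CPM in mutant libraries, and the pore-forming Bak1 had 21.05 ± 1.27 and 51.3 ± 2.05 CPM.

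Interferon-stimulated and antigen presentation genes had 18 higher and 1 lower among 23, 11 and 1 past 1.5-fold, with a median log2 difference of 0.78. B2m, the light chain of MHC class I, had 414, 419.7 and 420.4 CPM in WT and 833, 849.7 and 866 CPM in mutant libraries. Ifi27 had 31.5, 34.5 and 29.97 CPM against 74.9, 76.6 and 76.6 CPM, Bst2, the antiviral protein tetherin, 4.31, 5.01 and 4.86 against 13.2, 11.8 and 12.3 CPM, and Tap1, a peptide transporter, 3.52, 3.37 and 4.28 against 9.44, 10.03 and 9.46 CPM. The RNA sensor genes Ddx58 and Ifih1 had log2 differences of 1.199 and 1.94. Mx1, an antiviral GTPase, was the exception (9.33, 8.105 and 8.55 CPM in WT and 3.21, 3.22 and 3.56 CPM in mutant libraries). Several interferon-induced genes were near absence in both groups. Oas1a had 0.0227 ± 0.0393 CPM in WT and 0.866 ± 0.0705 CPM in mutant cells, and Ifit1, Ifit3, Oasl2, Rsad2, Rtp4 and Psmb8 had too few counts to be tested. B2m stood at 78.1 ± 3.37 CPM in untreated WT cells and at 1025 ± 21.4 CPM with 5-ALA.

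Of 13 tested stem, progenitor and myeloid regulators 2 were higher and 8 lower, 1 and 5 past 1.5-fold, with a median log2 difference of -0.47. The single regulators and receptors named here went in both directions. Bcl11a, a repressor of embryonic globin genes, had 6.69, 6.300 and 6.98 CPM in WT and 26.5, 25.99 and 25.9 CPM in mutant libraries (log2 1.98, SE 0.0575, adjusted p = 1.18e-22, edgeR), against 108 ± 3.32 CPM in untreated cells. Of 20 erythroid transcription factors 5 were higher and 10 lower (8 and 8 on the TPM scale), 1 and 3 past 1.5-fold, and their median went from -0.19 to 0.001 on the TPM scale. The line lacks endogenous GATA-1, but any reads from its own Gata1 gene and those from the fusion cannot be told apart. Together they stood at 877, 855 and 873 CPM in WT and 714, 719 and 735 CPM in mutant libraries (log2 -0.26). Per length the difference was smaller, with 721 ± 7.17 TPM in WT and 689 ± 8.27 TPM in mutant cells. The part of this lower RNA level in the other differences was not tested. Kit, the stem cell factor receptor, had 17.7 ± 0.539 CPM in WT and 3.68 ± 0.738 CPM in mutant cells. Il9r, the interleukin-9 receptor, had 5.29, 5.72 and 4.095 CPM in WT and 52.5, 53.7 and 53.6 CPM in mutant libraries, which did not overlap, and Csf2rb2, a receptor beta chain, 1301 ± 4.75 against 2051 ± 23.2 CPM, a value uncertain because Csf2rb is a close copy. The feedback gene Socs2 was higher (1.04) and Pim1, a kinase gene induced by STAT5, lower (-0.71). Of the adhesion molecules, Itga4, the alpha-4 integrin, had 49.4, 50.2 and 54.6 CPM in WT and 223, 219 and 214 CPM in mutant libraries, and Itgb3, the beta-3 integrin, 1779, 1775 and 1799 against 381, 394 and 396 CPM. Jun, a signal-induced transcription factor, had 181, 179 and 194 against 40.4, 44.3 and 48.2 CPM, in an immediate early list with 10 lower and 1 higher of 13 (5 and 1 both on the TPM scale and with scaling by library size alone).

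Genes of nucleotide synthesis, splicing and growth arrest went both ways. Of 21 purine and pyrimidine genes 4 were higher and 10 lower (12 and 3 on the TPM scale), 1 and 2 past 1.5-fold, with a median of -0.05 that was 0.13 on the TPM scale. Impdh1, an enzyme of guanine nucleotide synthesis, had 13.9, 13.1 and 13.3 CPM in WT and 2.72, 2.32 and 2.89 CPM in mutant libraries. With 5-ALA Impdh1 stood at 2.797 ± 0.313 CPM. Among 25 splicing factors 9 were higher and 15 lower with a median of -0.17 (10 and 6 on the TPM scale, median 0.05), and only Hnrnpa1 was past 1.5-fold (157, 158 and 158 against 366, 363 and 382 CPM). Of 22 genes of growth arrest and the p53 response 7 were higher and 11 lower, 2 and 5 past 1.5-fold. Called were 66.7% of the nucleotide, 96% of the splicing and 81.8% of the growth arrest genes, beside 68.8% of all tested genes. Btg2, an antiproliferative gene, had 2794, 2796 and 2821 CPM in WT and 1374, 1351 and 1391 CPM in mutant libraries, and Mdm2, the ligase that restrains p53, 519.5, 518 and 531 against 272, 268 and 270.5 CPM. Gadd45a, a DNA damage response gene, went the other way (62.8, 62.6 and 64.5 against 158, 160.3 and 169.8 CPM). The chromatin regulators Ezh2, the polycomb methyltransferase, and Uhrf1, a partner of DNA methyltransferase, had log2 differences of 0.801 and -1.08.

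Zinc genes changed in both directions. The metallothionein gene Mt2 had 57.6, 58.7 and 57.1 CPM in WT and 327, 323 and 336 CPM in mutant libraries, and Mt1 167, 159 and 162 against 655, 673 and 702 CPM. The mutant libraries of both lay above all WT libraries. Slc30a1, the zinc exporter of the plasma membrane, had 1346, 1359.6 and 1361 against 404, 398 and 391 CPM, whereas Slc30a10, an exporter of the same family, was higher (log2 0.96). With 5-ALA, Mt2 stood at 140.4 ± 4.22 CPM and Slc30a1 at 850.4 ± 4.96 CPM. Of the 19 tested zinc genes 6 were higher and 6 lower (8 and 4 on the TPM scale), 3 and 2 past 1.5-fold. That is 63.2% called, below the 68.8% of all tested genes.

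Some of the largest differences belonged to genes outside these pathways. Of genes with a mean of at least 10 CPM over the 6 libraries, the 12 largest rises past 1.5-fold included Ttc12, a factor of ciliary dynein assembly (0.131, 0 and 0.09001 CPM in WT, 20.5, 19.6 and 19.7 CPM in mutant libraries), the sulfotransferase gene Chst10 (log2 4.096), the phosphoinositide phosphatase gene Mtm1 (2.71), the protein disulfide isomerase gene Pdia2 (2.79) and Coro7, a coronin (2.399). The 12 largest falls by the same rule included Trap1a (-7.05), Igsf3 (-5.63), Pde6a, a cyclic GMP phosphodiesterase (49.8, 51.6 and 54.6 CPM against 1.99, 2.07 and 2.07 CPM), and Tspoap1 (-3.04). In all, 6 WT counts stood behind Ttc12, and its ratio was 272 (exact 95% interval 125 to 742, for counting error only). By limits chosen after the values were seen, genes under 0.5 CPM in WT and at 5 CPM or more in mutant cells included Ttc12, Ctsl, Angptl6 and Avil. The reverse held for 4 genes, Igsf3, 3830403N18Rik, Lncenc1 and Plod2. Ctsl, the lysosomal protease cathepsin L, had 7 counts over the WT libraries (ratio 111.1, interval 53.7 to 277). Plod2, a collagen lysyl hydroxylase, had 419 counts over the WT libraries and 0 over the mutant ones, at least 165.6-fold lower when 3 counts over the mutant group are taken as the floor. In untreated WT cells Pde6a stood at 0.541 ± 0.0964 CPM, Ctsl at 0.603 ± 0.1295 CPM and Ttc12 at 0.0507 ± 0.0439 CPM. Exons of some named genes overlap those of another tested gene that had at least 10% of their counts, and the strand setting of the counting is not given in the sources used here. The values of Acss2, Aldh1l2, Bak1, Ccne2, Cebpb, Coro7, Dnaja3, Avil, G6pdx, Hmox2, Mafg, Mars, mt-Atp6, Pfkm, Pfkp, Ppox and Shmt1 are uncertain to that extent, Coro7 and Dnaja3 because they overlap each other. By chromosome, median log2 differences lay between -0.11 on chromosome 1 and 0.06 on chromosome 7. The share of genes called higher ran from 28.4% to 39.3% and that of genes called lower from 28.4% to 39.1%.

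A stretch near one end of chromosome 16, picked out after the values were seen, differed from the rest of that chromosome. All 35 tested genes between 3744093 and 5255983 (mm10) had a log2 difference above 0, from 0.042 to 2.73 with a median of 1.17. Of them 31 were higher and 0 lower, and 25 were past 1.5-fold (71.4%, beside 8.72% of all tested genes and 7.58% of the other 356 on chromosome 16). The median was 1.01 on the TPM scale and 1.32 with scaling by library size alone. Trap1, Coro7, Dnaja3 and Hmox2 are among these 35 genes. The next tested gene starts at 8470788, and of the 7 that follow from there 1 had a difference above 0 and 0 were past 1.5-fold in that direction. Over all chromosomes, a window of 25 neighbouring tested genes held at most 19 past 1.5-fold in the same direction, here, and the next highest number, in a window on chromosome 12 with lower genes, was 12. With 5-ALA, the mean level of 34 of the 35 genes was again above that of WT cells with estradiol. The part of this shared position in the values of the 4 named genes was not tested. Other named genes lie within windows of 25 neighbouring tested genes with fewer calls. Aldh18a1 and Pgam1 lie in a window of chromosome 19 (39007019 to 42752775) with 10 higher past 1.5-fold. On chromosome 3, Rpl22l1 lies between 14606284 and 28854257, with 11 lower past 1.5-fold, and Igsf3 between 99240381 and 103912247, with 10. The part of position in the values of these genes was not tested either.

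The erythroid transcription factor gene Klf1, a defining marker, was present in all 6 libraries, at 105 ± 2.52 CPM in WT and 110.2 ± 7.44 CPM in mutant cells. Markers of granulocytes and macrophages summed to between 0.681 and 0.946 CPM in WT and between 0.0681 and 0.292 CPM in mutant libraries, all 12 of them under 1 CPM. Means over the 6 libraries were under 1 CPM for 10 of 10 mast cell, 9 of 10 measured lymphocyte, 9 of 10 fibroblast and 7 of 13 megakaryocyte markers. Those of mast cells summed to between 2.79 and 3.39 and between 0.912 and 1.02 CPM, lymphocyte markers to between 1.91 and 2.07 and between 1.249 and 1.41 CPM, and fibroblast markers to between 6.61 and 7.47 and between 5.77 and 6.20 CPM. The megakaryocyte list summed to between 1852 and 1875 CPM in WT and between 425 and 442 CPM in mutant libraries, most of it from the integrin genes Itgb3 and Itga2b. Without these 2 it summed to between 54.4 and 55.9 CPM in WT and between 36.0 and 37.4 CPM in mutant libraries. Of its platelet glycoprotein genes, Gp1ba was at 43.99 ± 1.16 CPM in WT and 29.7 ± 0.575 CPM in mutant cells and Gp9 at 3.33 ± 0.548 and 1.03 ± 0.247 CPM, while Gp1bb and Gp6 had 0 counts in all 6 libraries. The part of these cell types in the results above was not tested.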

How the data were processed

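RNA-seq of G1E-ER-GATA-1 cells was analysed from the deposited per-library gene tables. The authors' expected counts and their TPM per gene are RSEM values, per the file headers; mm10, Bowtie 1.1.1, RSEM 1.2.20 and CASAVA 1.8.2 are listed in the submitters' processing notes. Strand setting and annotation release: not given in the sources. Groups came from the labels. Expected counts were rounded to whole numbers and the 12 libraries were fitted as 4 group means with edgeR 4.0.16 in R 4.3.3 (TMM scaling, filterByExpr, robust quasi-likelihood F test), and mutant and WT cells with estradiol were contrasted. Benjamini-Hochberg adjustment covered all 12115 genes tested. The second call is glmTreat against a fold of 1.5. Both used an adjusted p under 0.05. CPM are counts relative to the TMM-scaled library total, given as mean ± SD over 3 libraries, and the SE of a log2 difference is its size over the root of F. Gene names and mm10 coordinates are from GENCODE M21, which matched 24746 of 25097 genes, and promoters are RefSeq's (GRCm38.p6). The fit was tested on simulated counts.

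The comparison, the gene lists and the tests were chosen with earlier results of these data known, so no list is independent evidence of its direction. Genes were named by rule: Alas2, the 12 largest rises and 12 largest falls past 1.5-fold with non-overlapping groups and a mean of at least 10 CPM, up to 4 members of each list with the largest called differences at 5 CPM or more (or the most abundant where none was called), and up to 3 called against the direction of most of their list. Some genes that the rule picks are not reported here. Of the 159 tested genes named, 35 fall outside it and were chosen after their values were seen: 3830403N18Rik, Aldh1l2, Angptl6, Avil, B2m, Bach1, Csf2rb, Ctsl, Ddx58, Eif2ak1, G6pdx, Gata1, Gclm, Gp9, Hba-a1, Hba-a2, Hbb-bs, Ifih1, Klf1, Lncenc1, Mafg, Mthfd1, Mthfd1l, Mthfd2, Nfe2l2, Oas1a, Pfkp, Pkm, Plod2, Prdx1, Pycr1, Shmt2, Slc25a37, Slc40a1 and Txnrd1. Gp1bb, Gp6, Ifit1, Ifit3, Oasl2, Psmb8, Rsad2 and Rtp4, which had too few counts to be tested, are named too. Alternatives were DESeq2 1.42.0 and its size factors, other low-count filters, the 6 compared libraries alone, limma 3.58.1 on log2(TPM + 1), the replicate number as a block, each library left out and, chosen after seeing the data, scaling by library size alone.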

Additional observations from a re-analysis of the deposited data

How the results depend on the processing

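On log2(TPM + 1) with limma, 2326 genes were lower and 336 lower past 1.5-fold, against 4076 and 1021 in edgeR; genes higher were 5618 and 1057. The cause was not tested. With scaling by library size alone, an alternative chosen after seeing the data, 5651 were higher and 2844 lower (1568 and 752 past 1.5-fold), and 66.5% of the called genes were higher. The other alternatives kept each of these 4 counts within 1.5 times the value reported, with 3722 to 4401 genes higher and 3614 to 4272 lower. Leaving out 1 library at a time gave 4079 to 4383 genes higher and 3763 to 3910 lower, 1003 to 1108 and 931 to 970 past 1.5-fold, and Alas2 differences from -9.27 to -8.95.

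Of the 158 named and tested genes other than Alas2, 149 kept their direction and their call on the TPM scale and 150 with library size alone. The sign turned for Bach1 (0.11 on the TPM scale, 0.068 with library size alone), Csf2rb (0.13 and 0.089), Eif2ak1 (0.024 on the TPM scale), Mars (0.061 and 0.084), Pfkp (0.054 and 0.0022) and Nfe2l2 (0.18 and 0.13, and 0.0035 without a low-count filter). The median changed sign for 11 of the 55 lists on the TPM scale and for 8 with library size alone.

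The replicate numbers of the labels did not pair the libraries: deviations of same-numbered WT and mutant libraries correlated between -0.0769 and 0.0153 across genes, and those of other pairs between -0.057 and 0.0598. With the replicate number as a block, edgeR gave 4216 genes higher, 4028 lower, and 1040 and 1003 past 1.5-fold, the Alas2 difference was -9.17, and all 158 kept their call. Depth limits the values under about 0.5 CPM, where few reads stand behind a fold.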
